A study of Homo sapiens with 66 samples.

Results

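Hypoxia-inducible factor 1β (HIF-1β, HIF1b in the labels) binding sites were compared between HepG2, a hepatocellular carcinoma line, and HKC8, a line derived from kidney proximal tubule. Both lines had spent 16 h in 0.5% oxygen, and each had 2 libraries of chromatin immunoprecipitation with sequencing (ChIP-seq) made with the same rabbit polyclonal antibody. A site was an interval in which peaks were called in both replicates of a line. It was common when both lines had a site there, HepG2-only when no peak of either HKC8 replicate overlapped it by 1 bp or more, and HKC8-only in the reverse case. The 4 peak lists gave 6513 sites, of which 717 were common, 1189 were HepG2-only and 4013 were HKC8-only. A further 245 HepG2 sites and 349 HKC8 sites met a peak in 1 replicate of the other line and were kept apart from these classes. The whole series holds 131131 peaks on chromosomes 1 to 22, X and Y in 50 peak lists.

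The HKC8 cells were unedited (HKC8_WT), the control arm of an experiment in which CRISPR had disrupted HIF-1α or HIF-2α in single clones, and HepG2 was assayed apart from them, so that cell line and experiment cannot be told apart. A second HKC8 pair of HIF-1β libraries, at the same oxygen and time, came from an experiment on the severity and duration of hypoxia. RCC4, a renal carcinoma line without functional VHL in which HIF-α is stable in normal oxygen, gave a further pair. The methods describe the replicates as independent ChIP experiments and do not say whether the cultures were separate, so the p-values below measure only the spread between these libraries. With 2 libraries against 2, the smallest p of an exact permutation test is 0.333, and no comparison could reach the threshold of 0.05.

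HIF is a dimer of an oxygen-regulated α subunit, HIF-1α or HIF-2α, with the constitutive HIF-1β subunit (also called ARNT). An antibody to HIF-1β therefore recovers sites of both dimers, and also those of other ARNT partners such as the aryl hydrocarbon receptor. The dimers bind a short core within the hypoxia response element (HRE), and their known targets raise glycolysis, glucose uptake and angiogenesis and restrain respiration. Most copies of the core in a genome are not bound, and the accessible ones differ between cell types. Liver cells are marked by HNF4, HNF1, C/EBP and FOXA (forkhead) factors, whereas AP-1, the dimer of FOS and JUN proteins, and TEAD factors are active at enhancers of many adherent epithelial and mesenchymal lines.

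The windows that follow are reference sequence of GRCh37, forward strand, cut around the centre of a peak or the motif nearest to it. Capitals mark each HRE core (ACGTG or GCGTG, read on either strand), each AP-1 heptamer (TGACTCA or TGAGTCA) and each forkhead heptamer (TGTTTAC or TATTTAC). Sites are named by the protein-coding gene with the nearest transcription start site (TSS), which need not be the gene they act on. The first set holds the best-ranked common sites with a core near the centre, at GPI and PFKFB4, which encode enzymes of glucose metabolism, and in the noncoding gene LINC02130, whose nearest coding gene is AC092291.2. In the AC092291.2 window the run TGACTCACGC is an AP-1 heptamer overlapping a core.
GPI (chr19:34850196-34850296): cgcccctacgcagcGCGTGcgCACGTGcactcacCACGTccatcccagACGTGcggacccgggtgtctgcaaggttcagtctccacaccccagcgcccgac
PFKFB4 (chr3:48594668-48594768): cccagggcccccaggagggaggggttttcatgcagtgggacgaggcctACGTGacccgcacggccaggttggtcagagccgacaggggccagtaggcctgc
AC092291.2 (chr16:14458431-14458531): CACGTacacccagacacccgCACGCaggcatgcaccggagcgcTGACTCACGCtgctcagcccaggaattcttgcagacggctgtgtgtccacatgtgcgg

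The HepG2-only set begins with the best-ranked sites that have a core near the centre. They are near INO80D (a chromatin remodeller subunit), P4HA2 (a collagen prolyl hydroxylase) and KDM4C (a histone demethylase). The next 4 windows hold a forkhead heptamer as well as a core, and are near F10 (coagulation factor X, made in liver), ANKRD30A, LRIG2 and MAX. The last pair, near EPO (erythropoietin) and APOC3 (apolipoprotein C-III), was chosen after their values were seen, because both genes are liver products.
INO80D (chr2:206840321-206840421): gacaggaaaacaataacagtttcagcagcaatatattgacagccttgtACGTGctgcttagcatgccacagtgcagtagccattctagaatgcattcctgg
P4HA2 (chr5:131563582-131563682): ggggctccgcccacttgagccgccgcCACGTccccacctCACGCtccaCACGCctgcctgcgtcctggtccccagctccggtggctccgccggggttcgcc
KDM4C (chr9:6716176-6716276): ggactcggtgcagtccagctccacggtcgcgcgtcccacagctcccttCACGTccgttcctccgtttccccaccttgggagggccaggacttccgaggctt
F10 (chr13:113793468-113793568): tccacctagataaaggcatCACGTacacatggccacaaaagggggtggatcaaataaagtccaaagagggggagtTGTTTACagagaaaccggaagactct
ANKRD30A (chr10:37178008-37178108): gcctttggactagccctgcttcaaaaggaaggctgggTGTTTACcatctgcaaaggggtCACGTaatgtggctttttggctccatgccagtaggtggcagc
LRIG2 (chr1:113569682-113569782): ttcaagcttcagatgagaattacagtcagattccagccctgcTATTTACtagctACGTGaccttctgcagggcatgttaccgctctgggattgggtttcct
MAX (chr14:65693834-65693933): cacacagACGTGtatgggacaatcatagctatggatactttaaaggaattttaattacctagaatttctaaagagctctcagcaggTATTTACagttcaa
EPO (chr7:100321395-100321495): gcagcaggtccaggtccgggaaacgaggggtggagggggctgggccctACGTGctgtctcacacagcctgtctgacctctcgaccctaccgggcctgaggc
APOC3 (chr11:116697737-116697837): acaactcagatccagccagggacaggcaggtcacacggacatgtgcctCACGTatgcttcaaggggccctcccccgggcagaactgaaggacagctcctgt

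The HKC8-only set begins with COL4A1 (a basement membrane collagen), ADARB1 (an RNA-editing enzyme) and SLC6A6 (the taurine transporter). It continues with further sites that hold an AP-1 heptamer, near LRTM1, QRSL1 and PDCD6. The windows near COL4A1, ADARB1 and SLC6A6 hold an AP-1 heptamer beside the core, although the rule that chose them asked for the core alone, and the site near ECE1, chosen with them and not shown, holds none.
COL4A1 (chr13:110658695-110658795): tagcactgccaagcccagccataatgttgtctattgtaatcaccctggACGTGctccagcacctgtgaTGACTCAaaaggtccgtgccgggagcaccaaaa
ADARB1 (chr21:46470781-46470881): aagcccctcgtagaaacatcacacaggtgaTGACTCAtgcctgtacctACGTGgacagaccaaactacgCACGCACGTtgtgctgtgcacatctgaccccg
SLC6A6 (chr3:14494414-14494514): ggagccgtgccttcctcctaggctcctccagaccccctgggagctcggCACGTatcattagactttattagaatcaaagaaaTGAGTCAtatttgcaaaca
LRTM1 (chr3:54790572-54790720): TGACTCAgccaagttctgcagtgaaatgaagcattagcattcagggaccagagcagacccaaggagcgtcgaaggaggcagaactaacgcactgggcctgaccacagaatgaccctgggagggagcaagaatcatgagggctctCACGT
QRSL1 (chr6:107199658-107199758): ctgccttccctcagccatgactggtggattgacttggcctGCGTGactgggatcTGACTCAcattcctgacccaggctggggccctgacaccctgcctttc
PDCD6 (chr5:263939-264039): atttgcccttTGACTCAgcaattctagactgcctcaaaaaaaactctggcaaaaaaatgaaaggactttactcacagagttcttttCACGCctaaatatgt

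The number of HIF-1β peaks was 6164 and 3972 in the HepG2 replicates, against 6192 and 8268 in HKC8. The groups did not overlap, with a log2 ratio of −0.53 (HepG2 to HKC8, exact permutation p = 0.333, adjusted 0.429) that was −0.85 without HepG2 replicate 1, −0.22 without HepG2 replicate 2, −0.32 without HKC8 replicate 2, and 1.67 against the other HKC8 experiment. The replicates of HepG2 overlapped less: 35.2% of the peaks of replicate 1 met a peak of replicate 2, and 54.4% the reverse, against 83.6% and 62.0% in HKC8. Read depth is unknown from peak lists, and a site missing from a list may lie just under the limit of the caller. A HepG2-only site is therefore a site not called in the 2 HKC8_WT HIF-1β libraries, and not one shown to be unbound in HKC8. Other HKC8 libraries of the series called some of these sites, as given below. The authors' score of a peak, read as −10 times the log10 of its p-value, starts at 50 and has many ties at 3100, and was used only to rank peaks within a library (a percentile rank near 0 is the best).

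Common sites were 33.5% of the HepG2 sites (722 of 2156, 95% Clopper-Pearson interval 31.5 to 35.5%) and 14.2% of the HKC8 sites (723 of 5085, 13.3 to 15.2%). These intervals, like all those below, cover counting error only. The HepG2-only share was 55.1% and the HKC8-only share 78.9%. Per library, 16.8% and 19.4% of all HepG2 peaks met an HKC8 site, while 12.8% and 10.98% of all HKC8 peaks met a HepG2 site. The groups did not overlap. Their means differed by 6.24 percentage points (p = 0.333 in the two-sided exact permutation test, 0.429 after Benjamini-Hochberg adjustment over 9 tests). The common shares divide nearly equal numbers of sites (722 and 723) by totals of 2156 and 5085. These shares, and those per library, therefore depend on list length and do not show that binding in 1 line is more line-specific. The direction depended on the libraries used: without HepG2 replicate 2 the difference was −0.609 points, without HKC8 replicate 1 it was 12.4 points, and with the other HKC8 experiment −22.7 points. The common share of HepG2 sites was 19.4% without HepG2 replicate 1 and 16.8% without replicate 2, where every peak of the remaining list counts as a site.

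The best-scored sites were shared most often. In HepG2 replicate 1 the share of peaks at an HKC8 site fell from 49.7% in the best 10% by score to 4.87% in the lowest 10%, and in replicate 2 from 54.9% to 5.51%. The HKC8 libraries also fell, from a lower start, 33.3% to 5.81% and 25.2% to 3.75%. Of the 100 best HepG2 sites 72 were common and 20 were HepG2-only, whereas of the 100 best HKC8 sites 50 were common and 42 were HKC8-only. The strongest sites of each line thus included some with no call in the 2 HIF-1β libraries of the other line.

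**Figure D1:**
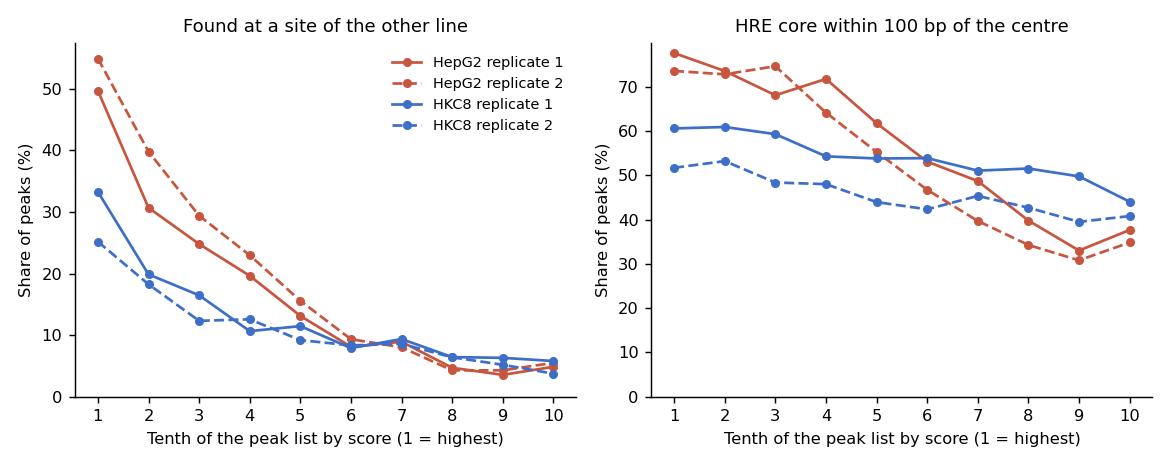
Shares of HIF-1β peaks (y axes, percent) that met a site of the other line (left) or held an HRE core within 100 bp of the centre (right), in 10 equal parts of each library by score (x axis, 1 is the best), with a line for each of the 4 libraries. On the left all 4 lines fall, from between 25.2% and 54.9% to between 3.75% and 5.81%, and on the right the HepG2 lines start above and end below the HKC8 lines.

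The median percentile rank of common sites was 12.9 in HepG2 replicate 1 and 18.3 in replicate 2, against 23.2 and 32.4 for HepG2-only sites. In HKC8 it was 22.3 and 19.96 for common sites, against 45.7 and 34.5 for HKC8-only sites. Within the common sites the order of ranks differed between the lines more than between replicates. Over the 717 common sites Spearman's rho was 0.36 between the lines' mean ranks, 0.797 between the HepG2 replicates and 0.864 between the HKC8 replicates. The 4 pairs of single libraries across lines gave 0.313 to 0.391. These are correlations across sites, which share libraries and local depth, and are given as a description.

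The 6 best-ranked common sites are given first. The best-ranked of all was at KDM3A, a hypoxia-induced histone demethylase (chr2:86667259-86669548, an intron, 0.215 kb from a TSS), with a score of 3100 in each of the 4 libraries and peaks in 46 of the 50 libraries of the series. GPI (chr19:34849520-34851131) scored 3100 in both HepG2 replicates and 3100 and 2806 in HKC8. GAPDH (chr12:6640922-6645611) scored 3100 and 3100 in HepG2 and 2409 and 3100 in HKC8. Both sites lay within 1 kb of a TSS and were at or near the top of every library. The site at PFKFB4 (chr3:48593251-48596758), an enzyme that sets the glycolytic regulator fructose 2,6-bisphosphate, scored 2666 and 3100 in HepG2 and 3005 and 2396 in HKC8. C4orf3 (chr4:120221185-120222640) scored 3100 and 3067 in HepG2, and 2941 and 2719 in HKC8. The only one of these 6 far from a coding gene was the LINC02130 site (chr16:14456955-14460350), 106 kb from the TSS of AC092291.2, which scored 2684 and 1975 in HepG2 and 3100 in both HKC8 replicates.

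The 6 best HepG2-only sites scored as high as many common ones. The site near INO80D (chr2:206839773-206841122, intergenic, 87.6 kb from the TSS) scored 3100 and 2236. The intergenic site near SLC22A16, a carnitine transporter (chr6:110886535-110888866), scored 3116 and 1739. They lay 300.1 and 330.8 kb from the nearest HKC8 site. The site in an intron of FBXO16 near ZNF395 (chr8:28268852-28270307) scored 2874 and 2415, the P4HA2 site (chr5:131562896-131564516, 0.15 kb from the TSS) 1831 and 2055, the ZNF747 site (chr16:30552035-30554093) 2631 and 1493, and the KDM4C site (chr9:6715143-6716990) 1744 and 1968. Some of these were called in other libraries. The ZNF395 site had a peak in 37 of the 50 libraries and the P4HA2 site in 21. Both counts exceed the libraries of HepG2 and RCC4 together, so both sites were also called in further HKC8 libraries. The INO80D, ZNF747 and KDM4C sites had a peak in 6, 6 and 4. The forkhead sites printed above ranked lower, apart from F10 (1198 and 1805). ANKRD30A scored 263 and 666, LRIG2 449 and 264, and MAX 360 and 312.

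The 6 best HKC8-only sites all lay far from a TSS. They were in an intron of ECE1, the endothelin-converting enzyme (scores 3233 and 3100), in LARS2 near LIMD1 (chr3:45594526-45597208, 3185 and 3100), and in LINC03082 near COL4A1 (chr13:110658197-110659523, 2714 and 3230). The sites near FRMD4A (chr10:14437883-14440050), ADARB1 (chr21:46469339-46472195) and SLC6A6 (chr3:14493051-14495977) scored 3100 in both replicates. Their distance to the nearest coding TSS ran from 19.3 kb at SLC6A6 to 163 kb at COL4A1. ECE1 and FRMD4A each had a peak in 39 of the 50 libraries, and ADARB1 in 13. The count of 39 exceeds the HKC8 libraries of the series, so ECE1 and FRMD4A were also called in another line. The AP-1 sites printed above scored 1569 and 2956 near LRTM1, 1460 and 2047 near QRSL1, and 1925 and 1463 near PDCD6. All 3 were called in further libraries of the series, in 15 to 27 of the 50.

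Position relative to genes differed between the classes. The peak centre lay within 1 kb of a coding TSS (called promoter-proximal here) at 48.8% of common sites (45.1 to 52.5%), 39.2% of HepG2-only sites (36.4 to 42.0%) and 4.98% of HKC8-only sites (4.33 to 5.70%). Sites over 10 kb away were the majority in HKC8-only, with 52.3% at 10 to 100 kb and 22.7% beyond 100 kb, against 32.5% and 9.34% in HepG2-only and 26.2% and 7.95% in common sites. The median distance was 1.13 kb for common, 4.95 kb for HepG2-only and 30.9 kb for HKC8-only sites. The centre was in an intron at 49.0% of HKC8-only sites, 35.4% of HepG2-only and 34.7% of common sites, while the intergenic share was 30.9%, 30.2% and 31.0%. The gap of 9.62 points between common and HepG2-only sites in promoter-proximal share was 2.40 with lists of equal length, 23.1 without HepG2 replicate 1, 14.8 without HepG2 replicate 2, 15.1 without HKC8 replicate 1 and 4.52 without HKC8 replicate 2.

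**Figure D2:**
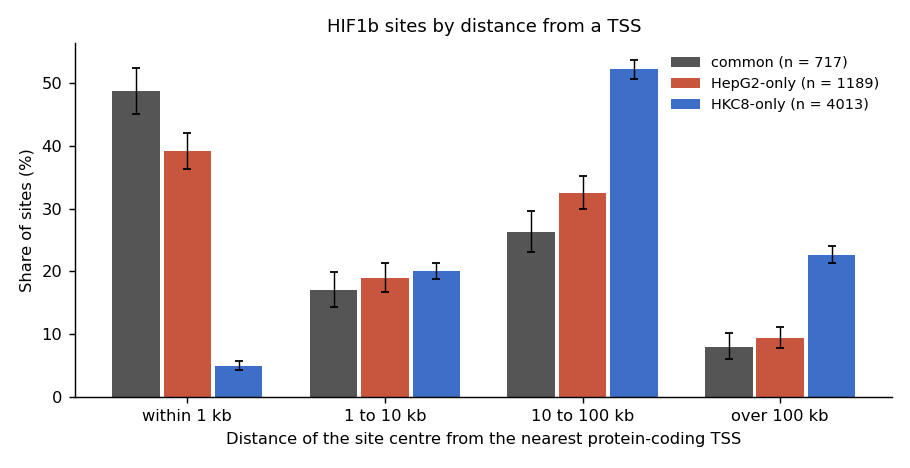
Shares of the common, HepG2-only and HKC8-only sites (y axis, percent, with 95% Clopper-Pearson intervals) in bins of distance from the peak centre to the nearest coding TSS (x axis, kb). Common and HepG2-only sites are most frequent within 1 kb (48.8% and 39.2%), HKC8-only sites at 10 to 100 kb (52.3%).

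Whole libraries showed the same difference, with HKC8_WT but not with the other HKC8 experiment. Promoter-proximal peaks made up 31.6% and 31.1% of the HepG2 lists (31.3% ± 0.39, SD, n = 2) and 12.2% and 12.9% of the HKC8_WT lists (12.6% ± 0.552, n = 2). The difference was 18.8 points (exact permutation p = 0.333, adjusted 0.429). In the HKC8 libraries of the severity and duration experiment the share was 34.4% and 26.9% (30.6% ± 5.26, n = 2), which overlaps the range of HepG2, and the difference from HepG2 was 0.697 points. In RCC4 it was 33.5% and 33.0%. The lists of the severity experiment are shorter, with 1356 and 1790 peaks. Among the best 1356 peaks of each library the share was 41.2% and 47.6% in HepG2, 14.5% and 13.8% in HKC8_WT, and 34.4% and 29.4% in the other HKC8 pair. The low promoter share thus went with the HKC8_WT libraries and was not seen in the second HKC8 pair, and what sets the HKC8 experiments apart was not tested.

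**Figure D3:**
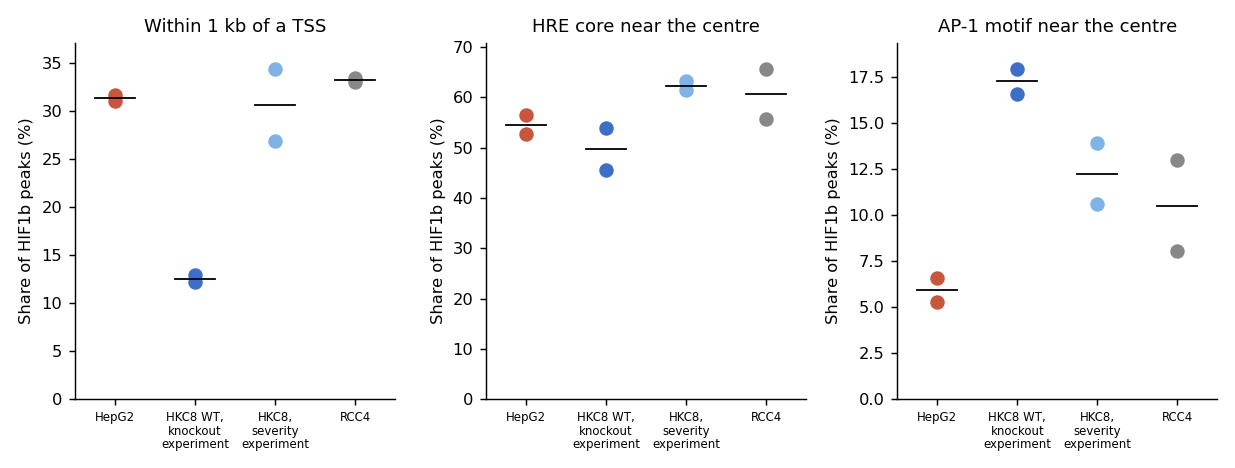
Shares of peaks (y axes, percent) within 1 kb of a coding TSS, with an HRE core and with an AP-1 heptamer, as points for each HIF-1β library of HepG2, HKC8_WT, the HKC8 severity and duration experiment and RCC4, with a bar at the mean of 2. The promoter share of HKC8_WT (12.2% and 12.9%) stands apart from the other pairs shown, and the AP-1 share of HepG2 (6.57% and 5.26%) is the lowest of the 4. The knockout clones are not shown.

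The HRE core (ACGTG or GCGTG, searched on both strands within 100 bp of the peak centre) was about as frequent at HepG2-only as at common sites. It was found at 74.5% of common (71.1 to 77.6%), 74.3% of HepG2-only (71.8 to 76.8%) and 49.4% of HKC8-only sites (47.9 to 51.0%). Windows of the same 201 bp placed 2 kb to either side held it at 24.97%, 24.8% and 20.6%, and windows at the TSS of all coding genes at 42.8%. At distal sites alone the shares were 72.8%, 75.9% and 49.1%. The likeness of common and HepG2-only sites rests on calls in both HepG2 replicates: without HepG2 replicate 1 or 2 the common sites were 24.5 and 17.8 points higher. By score, the core fell from 77.6% and 73.6% in the best 10% of the HepG2 lists to 37.7% and 34.8% in the lowest, and from 60.6% and 51.7% to 44.03% and 40.8% in HKC8_WT. The HepG2 lists thus had more cores among their best peaks and fewer among their weakest. Repeated cores followed the same order, with at least 2 at 36.96% of common, 34.1% of HepG2-only and 16.5% of HKC8-only sites. The files hold no summits, and the centre of a broad peak can miss the core, as at KDM3A, GAPDH and C4orf3, which had none within 100 bp. With the whole peak searched, the gap between common and HKC8-only narrowed from 25.1 to 10.6 points.

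Where a core was present, the share of its forms differed between HepG2-only and HKC8-only sites. The nearest core was ACGTG at 60.9% of common, 66.7% of HepG2-only (63.5 to 69.8%) and 60.5% of HKC8-only sites (58.3 to 62.6%), and the median distance from the centre was 32, 31 and 38 bp. A T before the core was found at 38.4%, 36.5% and 32.8%, and the form TACGTG at 24.3%, 28.1% (25.1 to 31.1%) and 19.2% (17.5 to 20.97%). Windows of all classes printed above hold TACGTG on either strand, such as PFKFB4 (common), EPO and INO80D (HepG2-only), and ADARB1 and SLC6A6 (HKC8-only). The E-box palindrome CACGTG was the nearest core at 8.24%, 9.39% and 11.1%. The form known for the aryl hydrocarbon receptor with HIF-1β, TNGCGTG, was the nearest at 5.43%, 3.28% (2.21 to 4.68%) and 6.51% (5.46 to 7.68%). Per library, the HRE share was 56.5% and 52.7% in HepG2 and 53.9% and 45.6% in HKC8_WT, ranges that overlap (difference 4.83 points, exact permutation p = 0.667, adjusted 0.75). The difference was 8.99 points without HKC8 replicate 1, 0.671 without HKC8 replicate 2 and 2.92 without HepG2 replicate 1. It was 63.2% and 61.5% in the other HKC8 pair, where the difference from HepG2 turned to −7.78 points.

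AP-1 heptamers were most frequent at HKC8-only sites. They were found within 100 bp of the centre at 18.8% of HKC8-only sites (17.6 to 20.1%), 10.5% of common sites (8.32 to 12.9%) and 4.88% of HepG2-only sites (3.72 to 6.26%), against 3.79%, 4.04% and 3.24% in the flanking windows and 2.38% at all coding TSS. At distal sites the shares were 19.3%, 16.3% and 6.22%. The common distal sites were thus close to the HKC8-only ones, with overlapping intervals (12.7 to 20.5% and 18.1 to 20.6%), and above HepG2-only (4.58 to 8.24%). Among HKC8-only sites 391, or 9.74%, had both a core and an AP-1 heptamer, as in the windows near COL4A1, ADARB1 and SLC6A6, against 3.70% of HepG2-only sites.

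The AP-1 difference was seen with either HKC8 experiment. It was 6.57% and 5.26% of peaks in HepG2 (5.92% ± 0.925, n = 2) and 17.9% and 16.6% in HKC8_WT (17.3% ± 0.945, n = 2), a difference of −11.4 points (HepG2 minus HKC8, exact permutation p = 0.333, adjusted 0.429). The other HKC8 pair had 10.6% and 13.9%, a difference of −6.35 points, and RCC4 had 13% and 8.05%. No HKC8 or RCC4 library was below the HepG2 libraries. Among the best 1356 peaks the shares were 6.64% and 6.56% in HepG2, 15.6% and 14.01% in HKC8_WT and 10.6% and 14.9% in the other pair. The TEAD heptamer GGAATGT was found at 8.26% of distal HKC8-only, 6.54% of common and 5.95% of HepG2-only sites, above 3.02%, 2.18% and 2.28% in their flanks, with intervals that overlap.

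HNF4 and HNF1 motifs were rare, and the forkhead and C/EBP shares of distal HepG2-only sites lay above those of their flanks. The forkhead heptamer was found at 8.71% of distal HepG2-only sites (6.76 to 11.01%), 6.32% of HKC8-only (5.57 to 7.14%) and 4.90% of common sites, against 6.501%, 5.93% and 4.63% in the flanks. Per library it was 6.59% and 5.41% in HepG2 and 6.20% and 6.11% in HKC8_WT, which overlap (difference −0.155 points, exact permutation p = 1, adjusted 1), and several alternative settings turned the sign. The HNF4 motif (CAAAGTCCA or CAAAGTTCA) was at 1.94% of distal HepG2-only sites (14 of 723, 1.06 to 3.23%), 0.525% of HKC8-only (20 of 3813) and 0.272% of common sites (1 of 367), against 0.692%, 0.498% and 0.136% in the flanks. It was higher in both HepG2 libraries (1.15% and 0.906%) than in both HKC8_WT libraries (0.565% and 0.532%), with exact permutation p = 0.333 (adjusted 0.429). The HNF1 motif (GTTAATNAT) was at 0.83%, 0.498% and 0.545% of the distal sites in the same order, and the C/EBP motif (TTGCNNAA) at 12.4% (10.1 to 15.1%), 10.9% (9.94 to 11.9%) and 10.4% (7.43 to 13.9%), intervals that overlap, against 8.99%, 9.97% and 9.67% in the flanks. All of these motifs are short strings, and a match is a description of the window and not a bound site.

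**Figure D4:**
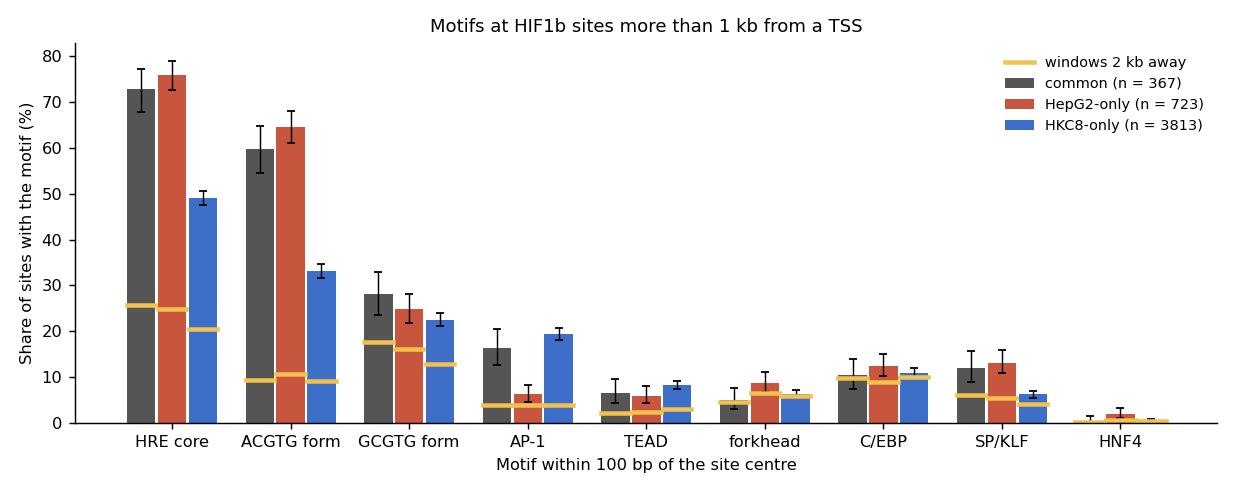
Shares of distal sites (over 1 kb from a coding TSS) with each motif within 100 bp of the peak centre (percent, with 95% Clopper-Pearson intervals), for common, HepG2-only and HKC8-only sites, and, as yellow lines, the same share in windows 2 kb away. The HRE core is at 72.8%, 75.9% and 49.1% of the 3 classes, AP-1 at 16.3%, 6.22% and 19.3%.

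The GC box GGGCGG of the SP and KLF factors followed promoters. It was at 58.4% of promoter-proximal HepG2-only sites, 42.9% of common and 17% of HKC8-only sites, against 48.3% at all coding TSS, and at 13.1%, 11.99% and 6.19% of distal sites. The TSS windows are centred on the TSS and the promoter-proximal sites anywhere within 1 kb of one, so position was not matched. The median GC content of the promoter-proximal windows was 69.9%, 62.7% and 56.5% in the same order. Per library the GC box was at 23.2% and 21.95% of HepG2 peaks and 9.48% and 9.93% of HKC8_WT peaks (exact permutation p = 0.333, adjusted 0.429). In the other HKC8 pair it was at 31.9% and 23.4%, and the difference from HepG2 turned from 12.9 to −5.07 points.

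The HKC8 knockout experiment also held HIF-1α and HIF-2α libraries of the HKC8_WT cells, which did not define the classes. Over all sites, HIF-2α peaks were more frequent at HKC8-only sites and HIF-1α peaks at common ones, but the HIF-2α difference was not seen among distal sites. Over all sites, peaks of both HIF-1α replicates were at 54.5% of common and 14.7% of HKC8-only sites, and peaks of both HIF-2α replicates at 47.7% and 65.1%. With a peak of both replicates of 1 isoform and of neither replicate of the other, 13.1% of common sites were HIF-1α-only and 4.88% HIF-2α-only, against 0.872% and 41.3% of HKC8-only sites. The lists differ in length, with 1910 and 1529 HIF-1α peaks and 4523 and 6736 HIF-2α peaks, so the isoforms cannot be set against each other. The classes also differ in HIF-1β rank. The median HKC8 rank was 22.3 and 19.96 at common sites, against 45.7 and 34.5 at HKC8-only sites. Sites of like rank were not compared, so how far the class differences go with rank was not tested. At distal sites alone, peaks of both HIF-2α replicates were at 67.0% of common (62.0 to 71.8%) and 65.8% of HKC8-only sites (64.3 to 67.3%), and those of both HIF-1α replicates at 55.3% (50.1 to 60.5%) and 14.6% (13.5 to 15.8%). At promoter-proximal sites the HIF-2α shares were 27.4% and 52%. The distal sites with both isoforms were 46.6% of common and 13.1% of HKC8-only sites, those with HIF-2α alone 8.45% and 42.0%, and those with HIF-1α alone 7.08% and 0.813%. Over all sites, the gap for HIF-1α fell from 39.8 to 7.81 points when the classes were set with the other HKC8 experiment, whereas that for HIF-2α went from −17.4 to −25.3 points. The HIF-2α gap was −5.03 points without HKC8 replicate 1 and −10.98 without replicate 2.

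The knockout clones gave HIF-1β in the absence of 1 isoform. In the HIF-1α knockout clone, which keeps HIF-2α, a HIF-1β peak of either replicate was at 55.8% of common and 71.0% of HKC8-only sites. In the HIF-2α knockout clone it was at 84.8% of common and 39.1% of HKC8-only sites. The order of the classes was thus opposite in the clones, each of which is a single clone with 2 libraries. The lists of the clones differ in length and the classes in rank, and sites of like rank were not compared. HepG2-only sites had such a peak at 3.78% and 4.29%, against 1.68% and 1.01% after a shift of 10 kb.

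**Figure D5:**
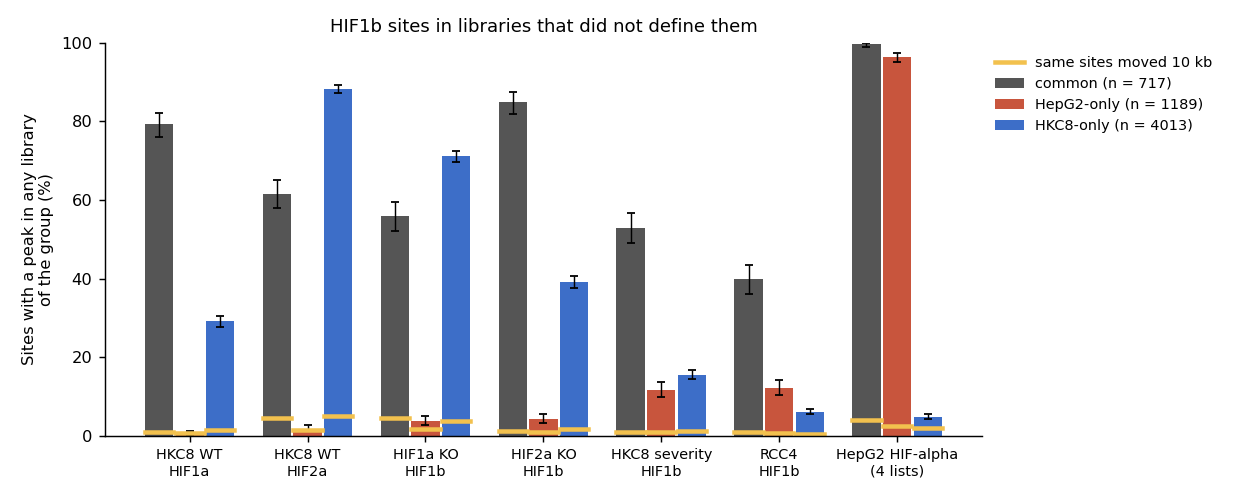
Shares of common, HepG2-only and HKC8-only sites (y axis, percent, with 95% Clopper-Pearson intervals) that overlapped a peak of any library of the group on the x axis, none of which defined the classes, with yellow lines for the same sites moved by 10 kb. HIF-1β of the HIF-1α knockout clone is at 55.8% of common and 71.0% of HKC8-only sites, and that of the HIF-2α knockout clone at 84.8% and 39.1%.

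In HepG2, peaks of any of the 4 HIF-α libraries were at 96.3% of HepG2-only, 99.6% of common and 4.83% of HKC8-only sites. The isoforms are not separated there: replicate 1 of HIF-1α and replicate 2 of HIF-2α had 6.73% and 8.08% of peaks within 1 kb of a TSS, while replicate 2 of HIF-1α and replicate 1 of HIF-2α had 28.7% and 30.6%, so that libraries with unlike isoform labels were alike. HIF-1β is the same subunit in both dimers, and its classes do not rest on those labels.

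HepG2-only sites near promoters were called more often than distal ones in kidney lines elsewhere in the series. The shares that follow count a peak in any 1 library of a set, unless stated. In the 24 libraries of the HKC8 severity and duration experiment a peak was found at 35.0% of promoter-proximal HepG2-only sites (30.6 to 39.5%) and 5.81% of distal ones (4.22 to 7.77%), against 1.29% and 2.49% after a shift of 10 kb. In the 6 RCC4 libraries the shares were 68.2% and 14.5%. In the 12 other libraries of the HKC8 knockout experiment they were 21.2% and 6.501%. With a peak in 2 or more libraries of the set, the shares fell to 22.96% and 3.18% in the severity and duration experiment. They fell to 25.97% and 8.71% in RCC4, and to 8.37% and 2.21% in the knockout experiment. The shift moves promoter-proximal sites off promoters, so it gives no background matched for promoters. Over the 1189 HepG2-only sites, 17.2%, 35.6% and 12.3% had a peak in these 3 sets. HKC8-only sites were called at 27.8% in the severity and duration experiment and 32.5% in RCC4, and there the promoter-proximal and distal shares in RCC4 were 51.0% and 31.6%. Common sites were called at 64.3% and 80.8% in those sets.

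Among common sites, those ranked better in 1 line were unlike those ranked better in the other. The 717 sites were put in 3 groups of 239 by the difference of mean ranks. Of the sites ranked better in HKC8, 26.4% were promoter-proximal (20.9 to 32.4%) and 17.2% had an AP-1 heptamer (12.6 to 22.5%), against 61.9% (55.4 to 68.1%) and 6.69% (3.87 to 10.6%) of those ranked better in HepG2. The HRE core was at 70.7% and 77.8%. Peaks of both HIF-2α replicates of HKC8_WT were at 80.3% and 12.1%, and those of both HIF-1α replicates at 71.1% and 23.8%. The HIF-α values are of the HKC8 cells, in which the first group ranked better, and come with that ranking.

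Genes were assigned to sites by a TSS of a protein-coding transcript within 25 kb of the peak centre. Of 19794 protein-coding genes 4.59% had a common, 7.03% a HepG2-only and 9.71% an HKC8-only site, and 12.9% had any HepG2 and 14.8% any HKC8 site. The lists of genes below were drawn up with earlier results of these data known, and no test was run on them. Their shares stand beside these backgrounds.

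Of 22 genes of glycolysis and glucose uptake, 12 (54.5%) had a common site, 4 (18.2%) a HepG2-only and 4 an HKC8-only site, and only 2 had none in either line. HepG2 had a site at 20 of them and HKC8 at 13. The common sites included GPI, GAPDH and PFKFB4 given above and PKM, the last enzyme of glycolysis (chr15:72518273-72520240), with scores of 2156 and 1684 in HepG2 and 3100 in both HKC8 replicates. The HepG2-only sites lay at promoters: ALDOC (0.037 kb from a TSS, scores 710 and 667), PFKL (0.216 kb, 645 and 431), TPI1 (0.181 kb, 933 and 198) and SLC2A1, which encodes the glucose transporter GLUT1 (0.322 kb, 407 and 208). PDK1, which holds pyruvate back from mitochondria, scored 3172 and 2790 in HepG2 (0.015 kb from a TSS) and met a peak in 1 HKC8 replicate, as did PGAM1, ENO2 and SLC16A3.

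SLC2A1 showed a site of each line. Its HepG2-only site was at the promoter (chr1:43423241-43425216), and 3 HKC8-only sites lay within 25 kb of a TSS, the best in an intron (chr1:43406088-43408536, scores 1175 and 1773). Other HKC8-only sites of this list were near PFKP (799 and 1298), ENO1 (618 and 772) and LDHA (171 and 190), each of which also had a common site. In HepG2 the common LDHA site scored 2899 and 1595, and in HKC8 264 and 1095.

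Of 15 genes of oxygen sensing and HIF feedback, 8 had a common, 3 a HepG2-only and 1 an HKC8-only site, and 5 had none. Common sites were at KDM3A, BHLHE40 (a repressor; scores 2758 and 1704 in HepG2, 2131 and 3100 in HKC8), EGLN3 (an oxygen-sensing prolyl hydroxylase; 1756 and 1016, 3100 and 3100) and KDM4B (2618 and 1255, 2070 and 2842). EGLN1, which encodes the main prolyl hydroxylase that marks HIF-α for destruction, had a HepG2-only site 0.189 kb from its TSS with scores of 981 and 931. BHLHE41 had one at 10.5 kb (431 and 179). The HKC8-only site was near BHLHE40 (117 and 543). The HepG2-only KDM4C site lay 41.4 kb from the nearest HKC8 site, and KDM4C also had a common site at 0.093 kb (1440 and 1122 in HepG2, 612 and 913 in HKC8).

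Of 30 other hypoxia-induced genes, 21 (70.0%) had a common site, 7 a HepG2-only and 11 an HKC8-only site, and every gene had a site in at least 1 line. The best common sites were near DDIT4, an inhibitor of mTOR (2996 and 1533 in HepG2, 3100 and 3100 in HKC8), ADM, which encodes the vasodilator adrenomedullin (1932 and 1266, 2016 and 2419), PLOD2, a collagen lysyl hydroxylase (2637 and 1514, 1288 and 1755), and PLOD1 (2414 and 1064, 2468 and 1488). HepG2-only sites were at P4HA2, RORA (0.263 kb, 1494 and 1229), BNIP3, a mitophagy receptor (0.024 kb, 1289 and 658), and ERO1A, an oxidase of protein folding (0.047 kb, 636 and 494). EPO, whose product drives red cell formation, had a HepG2-only site 3.32 kb from its TSS (chr7:100320846-100322061), with scores of 1244 and 342. HKC8-only sites were near P4HA2 (1027 and 3100), DDIT4 (1012 and 1436) and CA12, a carbonic anhydrase (652 and 924). P4HA2 was the only gene of this list with both a HepG2-only and an HKC8-only site and no common site.

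Liver genes had sites in HepG2. Of 37 genes of liver identity, 10 (27.0%) had a HepG2-only site, 1 an HKC8-only and none a common site, and 26 had none. Within 50 kb the counts were 11, 3 and 2, against backgrounds of 11.3%, 16.4% and 7.02%. One intergenic interval (chr11:116696631-116698460, scores 1108 and 1279) lies 2.72 kb from the TSS of APOC3 and 10.6 kb from that of APOA1, so that these 2 genes share a site. AMBP, a plasma protein precursor, had a site with scores of 884 and 729, TF (transferrin) of 929 and 181, and SERPINA1 (α1-antitrypsin) of 342 and 304. Of the 7 liver markers, 3 (APOA1, SERPINA1 and HNF4A) had a HepG2-only site and none an HKC8 site. ALB, AFP, TTR and FOXA2 had no site in either line, which says nothing of their expression, since the lists hold none. The HNF4A site (intron, 498 and 91.9) had percentile ranks of 8.08 and 39.25 in HepG2 replicates 1 and 2, where the medians of HepG2-only sites were 23.2 and 32.4.

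Kidney tubule genes had sites at a rate near the background. Of 22, 3 (13.6%, against 9.71% of all coding genes) had an HKC8-only and 1 a HepG2-only site, and 17 had none. The HepG2-only count was 0 within 10 kb and 3 within 50 kb. Of 5 kidney tubule markers, PAX2 (scores 315 and 445), PAX8 (56.5 and 139) and CDH16 (93.8 and 216) had HKC8-only sites. The HepG2-only site was near HAVCR1 (1132 and 198), the kidney injury molecule, and lay 24.1 kb from its TSS.

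Genes of the extracellular matrix and adhesion had sites in HKC8. Of 26, 12 (46.2%) had an HKC8-only, 1 a HepG2-only and 2 a common site. Within 10 kb rather than 25 kb the HKC8-only count was 5, where the background was 5.01%, and the HepG2-only and common counts were 0. The 12 genes with an HKC8-only site within 25 kb included COL5A1 (567 and 386), COL4A2 (331 and 574), LAMA5 (188 and 732) and ITGB6, an integrin of epithelia (217 and 206). FN1 (fibronectin) had the HepG2-only site (519 and 156), and ITGB3 had a common one (873 and 1194 in HepG2, 1597 and 1708 in HKC8). Of 11 genes of AP-1 subunits, 5 had an HKC8-only and 2 each a HepG2-only and a common site. Within 10 kb the HKC8-only and common counts were each 1. FOSL1 had the best HKC8-only one (543 and 1032), followed by FOSL2 (242 and 530), JUN (58.8 and 210) and FOSB (66.3 and 157). JUND had a HepG2-only site (129 and 82.8), and FOS had sites of all 3 classes.

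Over all coding genes, 159 had both a HepG2-only and an HKC8-only site within 25 kb. They are 11.4% of the genes with a HepG2-only site, where 9.71% of all coding genes had an HKC8-only site. They are 8.27% of the genes with an HKC8-only site, where 7.03% of all coding genes had a HepG2-only site. Both shares are thus near those over all coding genes. Of these 159 genes 144 had no common site. SLC2A1 and P4HA2 are examples. The median distance to the nearest site of the other line was 151 kb for HepG2-only and 363 kb for HKC8-only sites, and 14.7% and 7.25% had one within 25 kb. The classes exclude overlap by definition, and the lists searched differ in length (5085 HKC8 and 2156 HepG2 sites). No background distance was computed, so these values do not show whether such sites lie near or far from each other.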

How the data were processed

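Human HIF-1β ChIP-seq peak lists of HepG2 and HKC8_WT were used, with 20 of the 50 lists of the series read per library. According to the submitters' processing notes, the authors trimmed reads with Trim Galore 0.3.3, aligned them to GRCh37 (hg19) with BWA 0.7.5a-r405, processed them with SAMtools 0.1.19, bedtools 2.17.0 and Picard 1.106, and called peaks with MACS in control mode (version not given in the sources used here). The deposited score was read as −10 times the log10 of the p-value. The lists hold every MACS call of single libraries, before the second caller and background filter of the study. The 4 lists hold 7, 14, 7 and 11 peaks on other contigs, which were left out.

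Coordinates are 1-based on GRCh37. TSS are those of 89204 protein-coding transcripts of GENCODE 44 mapped to GRCh37. Motifs were searched with pysam 0.24.0 in the 201 bp around the peak centre on both strands, and overlapping motifs each counted. Intervals are 95% Clopper-Pearson (scipy 1.17.1, numpy 2.4.6, Python 3.11.15). Libraries were compared with exact permutation tests, two-sided, with Benjamini-Hochberg adjustment over 9 tests. Same-numbered replicates are not known to be paired. The scripts were tested on simulated data.

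The sites, gene lists and motifs were chosen with earlier results of these data known. Named sites are the 6 with the best mean percentile rank in each class and, for each gene list and class, up to 4 genes with the best-ranked site, plus the marker genes. Sequences are those of the 6 that hold a core near the centre outside chromosome 8 and UTRs (at most 4 a class), and up to 4 HepG2-only sites with a forkhead and 4 HKC8-only sites with an AP-1 heptamer. EPO, the APOC3 sequence, PDK1, PGAM1, ENO2 and SLC16A3, and the common sites of LDHA and KDM4C were named after their values were seen. A few items that these rules would name are not reported here.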

Additional observations from a re-analysis of the deposited data

Results flagged for a closer look

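In the AP-1 heptamer the lines moved in opposite ways between their own classes. In the HepG2 libraries, peaks at common sites had AP-1 more often than peaks at HepG2-only sites, by 5.26 percentage points in replicate 1 and 6.15 in replicate 2. In the HKC8 libraries, peaks at common sites had it less often than peaks at HKC8-only sites, with differences of −8.68 and −7.67 points. The 2 libraries of a line were scored at the same sites, which both had to call, so their agreement is not independent. At distal sites the intervals of common (12.7 to 20.5%) and HKC8-only sites (18.1 to 20.6%) overlapped. The difference between the lines was not tested.

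The RUNX motif (TGTGGTT) had the same signs, with values near 0 in HepG2. Over sites it was at 3.63% of common (2.38 to 5.27%) and 2.86% of HepG2-only sites (1.99 to 3.97%), intervals that overlap. The RUNX share of peaks at common minus line-only sites was 0.0787 and 0.549 points in the HepG2 libraries. It was −1.45 and −1.999 points in the HKC8 libraries, and this difference between the lines was not tested either.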

How the results depend on the processing

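Differences are in percentage points. Against the other HKC8 experiment (an alternative added after seeing the data for the shares of peaks with motifs and the peak number), HepG2 minus HKC8 turned to 1.67 for the log2 ratio of peak number, −22.7 for peaks found in the other line, −7.78 for the HRE core, 3.00 for forkhead, 2.25 for C/EBP and −5.07 for the GC box. The common share of HepG2 sites was then 17.3% and of HKC8 sites 45.5%, and common minus HepG2-only was 22.9 for promoter-proximal sites, 7.48 for the HRE core and −4.39 for forkhead. Common minus HKC8-only was then 50.7, 12.3 and 0.192 for these features. With lists of equal length, the common shares were 27.0% and 17.7%, the promoter gap of common over HepG2-only 2.40, and the AP-1 gap of common and HKC8-only −5.49. Peak number could not be compared at equal length. With windows of 200 bp the common shares were 23.6% and 10.4%, common minus HKC8-only was 39.5 for promoters and 31.4 for the HRE core, and common minus HepG2-only was 6.96 for the HRE core. With motifs anywhere in the peak, common minus HepG2-only was 15.1 for AP-1 and 6.64 for forkhead, common minus HKC8-only was 10.6 for the HRE core and −16.5 for AP-1, and the HRE difference between libraries was −3.96. Within 50 bp, common minus HKC8-only was 19.01 for the HRE core and −4.25 for AP-1. The forkhead difference between libraries, −0.155 as reported, was 0.692 with equal lists, 0.129 with scores of at least 100, 0.0346 within 50 bp, and 0.922 and 2.36 among the best peaks of 6 lists with either HKC8 experiment (added after seeing the data), where C/EBP was 2.21 with the severity experiment. Within 10 kb, 5 matrix and adhesion genes and 1 AP-1 subunit gene had an HKC8-only site. The causes of these changes were not tested.

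Leaving out 1 library at a time moved the common share of HepG2 sites to 16.8 to 41.8% and of HKC8 sites to 10.98 to 20.2%. Promoter gaps ran from 4.52 to 23.1 (common minus HepG2-only) and 36.2 to 49.1 (common minus HKC8-only), HRE gaps from −1.77 to 24.5 and 19.5 to 31.3, AP-1 gaps from 3.75 to 7.51 and −9.60 to −6.08, and forkhead gaps from −1.62 to −0.455 and −2.18 to −0.343. Between libraries, the peak number ran from −0.85 to −0.22, the promoter share from 18.4 to 19.2, peaks found in the other line from −0.609 to 12.4, HRE from 0.671 to 8.99, AP-1 from −12.0 to −10.7, forkhead from −0.742 to 0.432, HNF4 from 0.358 to 0.603, C/EBP from −1.89 to −1.20 and the GC box from 12.2 to 13.5. With the replicate block (permutation within replicate number) the smallest p is 0.5, which 8 of the 9 tests gave, and forkhead gave 1. Same-numbered libraries of the lines are not known to share a culture or a day. Peak lists carry no depth, so sites near the limit of the caller cannot be told from unbound ones.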

Other observations

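The ratio of the line-only classes differed between chromosomes, where the totals were 1189 HepG2-only and 4013 HKC8-only sites. The number of HepG2-only sites per HKC8-only site was lowest on chromosome 5 (0.204, 53 and 260) and highest on chromosome 19 (0.536, 67 and 125). Chromosome Y, which had no HKC8-only site, was left out. The ratio was 0.273 on chromosome 1 (111 and 406) and 0.51 on chromosome 17 (76 and 149). Copy number and input depth of the lines are not in the lists and were not tested. The ETS motif (CCGGAAG) was also unequal between classes: 10.9% of promoter-proximal common, 10.5% of HepG2-only and 0.5% of HKC8-only sites had one (1 of 200, 0.0127 to 2.75%), against 10.4% of all coding TSS windows. The TSS windows are centred on the TSS, while the sites are centred anywhere within 1 kb of one, so position and GC content were not matched.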
